A study of Rattus norvegicus with 9 samples.

Results

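The genes described here are a list of 45 cell cycle and proliferation genes, chosen by name and read in rat blood and in 2 brain regions, the hippocampus (HC) and the prefrontal cortex (PFC). A gene was represented by the probe set that the array annotation gives to that gene alone, and by the one with the highest mean over the 9 arrays where several did so. Under this rule 40 of the 45 genes had a probe set, out of 14506 genes so annotated. Mcm3, Mcm4, Mki67, E2f2 and Cdkn2d were not analysed here. By role the 40 genes comprised 8 of DNA replication, 16 of G2 and mitosis, 11 of G1 and the entry into S phase, 3 inhibitors of cyclin-dependent kinases, and Cdk5 and Plk2. Those last 2 belong to families of cell cycle kinases and were grouped here because they act in neurons.

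The animals were male Wistar rats, young according to the methods of the study, that received no treatment. Whole blood had been drawn into tubes that stabilise RNA, and the brain regions had been punched from frozen sections, so each array holds a mixture of cell types. There were 3 arrays per tissue, from the rats numbered 2, 5 and 7, and each rat gave all 3 tissues. The methods name more rats than the arrays hold, so n rests on the arrays. Values are log2 expression values per probe set, and a difference of 1 is a 2-fold change.

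A dividing cell passes through G1, copies its DNA in S phase, and separates the copies in mitosis. Cyclins of the D and E type and their kinases drive the exit from G1 by phosphorylating the retinoblastoma protein Rb1, which releases E2F factors. E2F factors turn on replication genes such as the Mcm helicase subunits, and the MuvB complex with B-Myb and FoxM1 turns on the mitotic genes. Most cells of circulating blood and almost all neurons of the mature brain do not divide, while young red cells, activated lymphocytes, glial precursors and the progenitors of the hippocampal dentate gyrus can carry transcripts of this programme.

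The tissues matched their labels. Of 8 erythroid markers all were present in blood (mean RMA value of 3 arrays above 6.2) and 1, the globin Hbb, in HC and in PFC. Their mean ranged from 11.61 to 11.83 in the blood arrays and from 4.96 to 5.58 in the brain arrays. All 8 neuronal markers were present in HC and PFC, with means of 11.14 to 11.27, and 2 of 8 (Rbfox3 and Tubb3) in blood. In tissue RNA, fewer cells of a type and less RNA per cell cannot be told apart, and this holds for every difference given here.

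Most of the cell cycle genes were lower in brain than in blood, and the exceptions were cyclins of G1 and the neuronal kinases. Taking the mean of HC and PFC against blood, 32 of 40 genes were lower in brain, 5 were higher and 3 did not pass the test (limma, Benjamini-Hochberg adjusted p under 0.05 over all probe sets). Tissue differences were the rule on these arrays: 43.9% of all genes were lower in brain, 38.6% were higher, and 82.5% passed the test in either direction. In either direction the 37 of 40 that passed stood against that 82.5%, and whether the list differs from other genes in direction was not tested. The median difference of the 40 was -1.45, against -0.11 over all genes. Scaling the arrays on a housekeeping panel moved the split of all genes to 61.4% lower and 25.6% higher and their median to -0.66. That scaling shifts all genes of an array alike. The median of the 40 relative to all genes was -1.34 as deposited and -0.93 with values raised to the background of their tissue. Over the 31 genes above 6.2 in at least 1 tissue it was -1.91, but 14 of these passed through blood alone. The same filter moved the median of all genes to 0.4, so -1.91 rests in part on that selection. The 3 blood and 6 brain arrays did not overlap for 36 of 40 genes, compared with 74.8% of all genes.

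**Figure D1:**
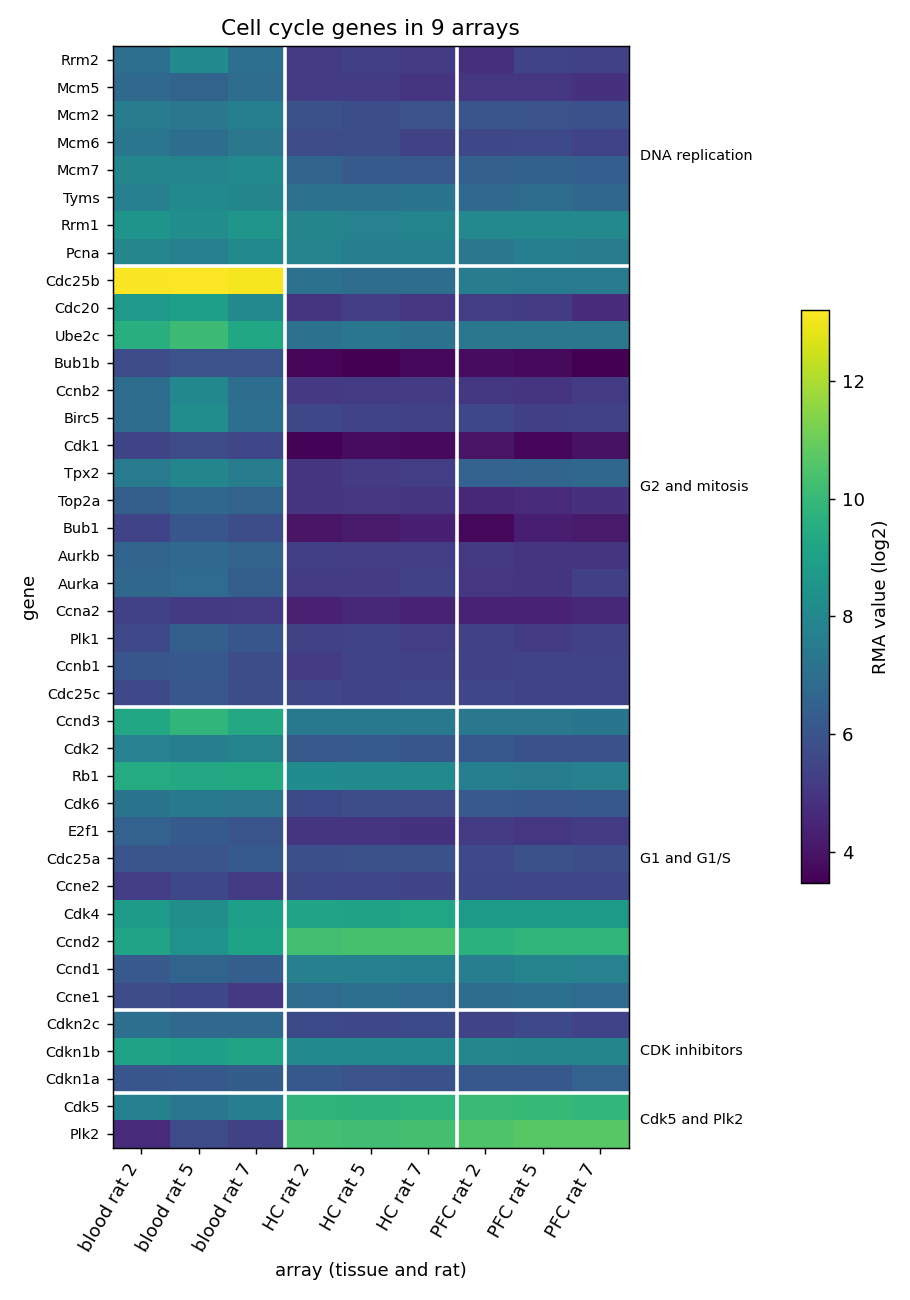
Log2 RMA value (colour) of each of the 40 genes (rows, by role) in each of the 9 arrays (columns, by tissue and rat). The DNA replication and mitosis blocks are brighter in the 3 blood columns, and Ccnd1, Ccnd2, Ccne1, Cdk5 and Plk2 are brighter in the 6 brain columns; colours are to be compared along a row, since probe sets differ in affinity.

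Each region was also set against blood on its own. In HC 31 genes were lower and 6 higher than in blood, against 41.4% and 37.3% of all genes (78.7% in either direction). In PFC 32 were lower and 5 higher, against 41.4% and 37.4% of all genes (78.8% in either direction). Both comparisons use the same blood arrays. Of the calls, 2 differed between them: Cdk4 was higher in HC (by 0.47) while its difference in PFC was 0.09, and Pcna was lower in PFC (by -0.39) while its difference in HC was -0.22.

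By the presence cut-off of 6.2, 28 of the 40 genes were present in blood (70.0%), 15 in HC (37.5%) and 17 in PFC (42.5%), compared with 55.3%, 58.0% and 58.2% of all genes. In blood alone 14 were present: Mcm2, Mcm5, Mcm6, Rrm2, Top2a, Ccnb2, Cdc20, Aurka, Aurkb, Birc5, Cdk2, Cdk6, E2f1 and Cdkn2c. That is 35.0% of the genes, against 8.98% of all genes. In both brain regions and not in blood there were 2, Ccne1 and Plk2. A total of 13 were present in all 3 tissues, Tpx2 in blood and PFC, Cdkn1a in PFC alone, and 9 in none. The count in brain depends on the cut-off. Chemosensory receptors served as background (1298 probe sets; their 95th percentile was 5.53 in blood, 4.88 in HC and 4.85 in PFC). Above it were 36 genes in blood, 36 in HC and 35 in PFC.

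All 16 genes of G2 and mitosis were lower in brain, against 43.9% of all genes, with a median difference of -1.77. The arrays of blood and brain did not overlap for any of the 16, as was so with brain lower for 39.0% of all genes. Cdc25b, the phosphatase that activates the mitotic kinase Cdk1, had blood values of 13.17, 13.21 and 13.09 in rats 2, 5 and 7. Its values were 7.08, 6.91 and 6.96 in HC and 7.57, 7.50 and 7.50 in PFC. Blood thus stood far above both regions in every rat, and the difference was -5.90 ± 0.0764 (standard error; 59.8-fold, adjusted p = 4.13e-11 by limma).

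Cdc20, which activates the anaphase-promoting complex, had blood values of 8.71, 8.97 and 8.05. Its HC values were 4.93, 5.22 and 5.00, and its PFC values 5.23, 5.14 and 4.68. All 3 blood arrays were high and the 2 regions covered the same narrow range, with a difference of -3.54 ± 0.200 (11.7-fold, adjusted p = 1.45e-07). Ube2c, the ubiquitin-conjugating enzyme that works with that complex, read 9.61, 10.16 and 9.26 in blood, 7.08, 7.29 and 7.09 in HC, and 7.31, 7.34 and 7.34 in PFC. It was present in all 3 tissues but lower in brain by -2.43 ± 0.167 (adjusted p = 6.10e-07).

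Top2a, the topoisomerase that untangles chromosomes before they separate, read 6.42, 6.73 and 6.58 in blood. It read 4.97, 4.99 and 4.91 in HC and 4.59, 4.64 and 4.84 in PFC, where its mean was not above background. The difference was -1.76 ± 0.0954 (adjusted p = 1.09e-07). Cdk1, the kinase that starts mitosis, read 5.48, 5.69 and 5.52 in blood, 3.56, 3.79 and 3.71 in HC, and 3.96, 3.62 and 3.91 in PFC. Its blood values lay around the background level and its brain values below it. The measured difference was -1.81 ± 0.103 (adjusted p = 1.60e-07). With every value under 5.53, the highest of the 3 background levels, raised to it in all tissues (1 common floor, an alternative added after seeing the data and not tested), the difference was -0.05, so its size is not well measured.

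The same holds for 3 other genes whose brain values lay below background. With the common floor the difference of the spindle checkpoint protein Bub1b went from -2.24 to -0.33 and that of its relative Bub1 from -1.66 to -0.26. The S phase and mitotic cyclin Ccna2 (measured difference -0.77) was not above background in any tissue, and no difference is left with the common floor. Over the 16 mitotic genes the median was -1.09 with that floor, against 0.0 over all genes. The floor also reduced differences of genes present in blood: Top2a to -1.05, Aurka to -1.13 and Aurkb to -1.12. Cdc25b (-5.9) and Ube2c (-2.43) did not change. The other mitotic genes were Ccnb2 (cyclin B2, -2.21), Birc5 (survivin, -1.95), Tpx2 (a spindle assembly factor, -1.79), the Aurora kinases Aurkb (-1.54) and Aurka (-1.51), Plk1 (polo-like kinase 1, -0.70), Ccnb1 (cyclin B1, -0.62) and the phosphatase Cdc25c (-0.36). A second probe set of Ccnb2 gave -2.22. The call of Cdc25c (adjusted p = 0.0121) was lost when the arrays were quantile normalized (adjusted p = 0.255), without rat 5 (adjusted p = 0.105) and without rat 7 (adjusted p = 0.0692).

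All 8 replication genes were lower in brain, against 43.9% of all genes, with a median of -1.59. Rrm2, the subunit of ribonucleotide reductase whose amount limits the making of DNA building blocks, read 7.03, 8.17 and 7.02 in blood. It read 5.19, 5.32 and 5.17 in HC and 4.76, 5.47 and 5.35 in PFC. The blood of rat 5 was high, and even the lower blood arrays stood above every brain array (difference -2.20 ± 0.260, adjusted p = 3.36e-05). A second probe set of Rrm2 gave -1.91.

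The 4 measured subunits of the Mcm helicase, which unwinds DNA at the replication fork, moved alike. Mcm5 read 6.79, 6.57 and 6.94 in blood, 5.16, 5.15 and 4.97 in HC, and 5.01, 5.02 and 4.85 in PFC (difference -1.74 ± 0.102, adjusted p = 1.87e-07). Mcm2 read 7.55, 7.33 and 7.68 in blood, 5.89, 5.81 and 5.94 in HC, and 6.0, 5.94 and 5.92 in PFC (difference -1.61 ± 0.0924, adjusted p = 1.67e-07). Mcm6 and Mcm7 differed by -1.60 and -1.58. With the common floor Mcm5 differed by -1.24 and Mcm6 by -1.56, and Mcm2 and Mcm7 did not change. In all 4 the HC and PFC arrays overlapped.

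The other 3 replication genes differed less. Tyms, which makes thymidylate, was lower by -0.93, and Rrm1, the other ribonucleotide reductase subunit, by -0.48. Rrm1 had the value 8.04 in all 3 PFC arrays, so its spread there is 0 and cannot be taken as its error. Pcna, the sliding clamp of replication and repair, read 7.97, 7.69 and 8.12 in blood against 7.37 to 7.82 in brain. These groups overlapped, and its call (-0.31, adjusted p = 0.0321) was lost with the spread estimated per tissue (adjusted p = 0.152) and without any one of 5 arrays (adjusted p from 0.0621 to 0.125): rats 2 and 7 in blood, rats 5 and 7 in HC, and rat 2 in PFC.

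**Figure D2:**
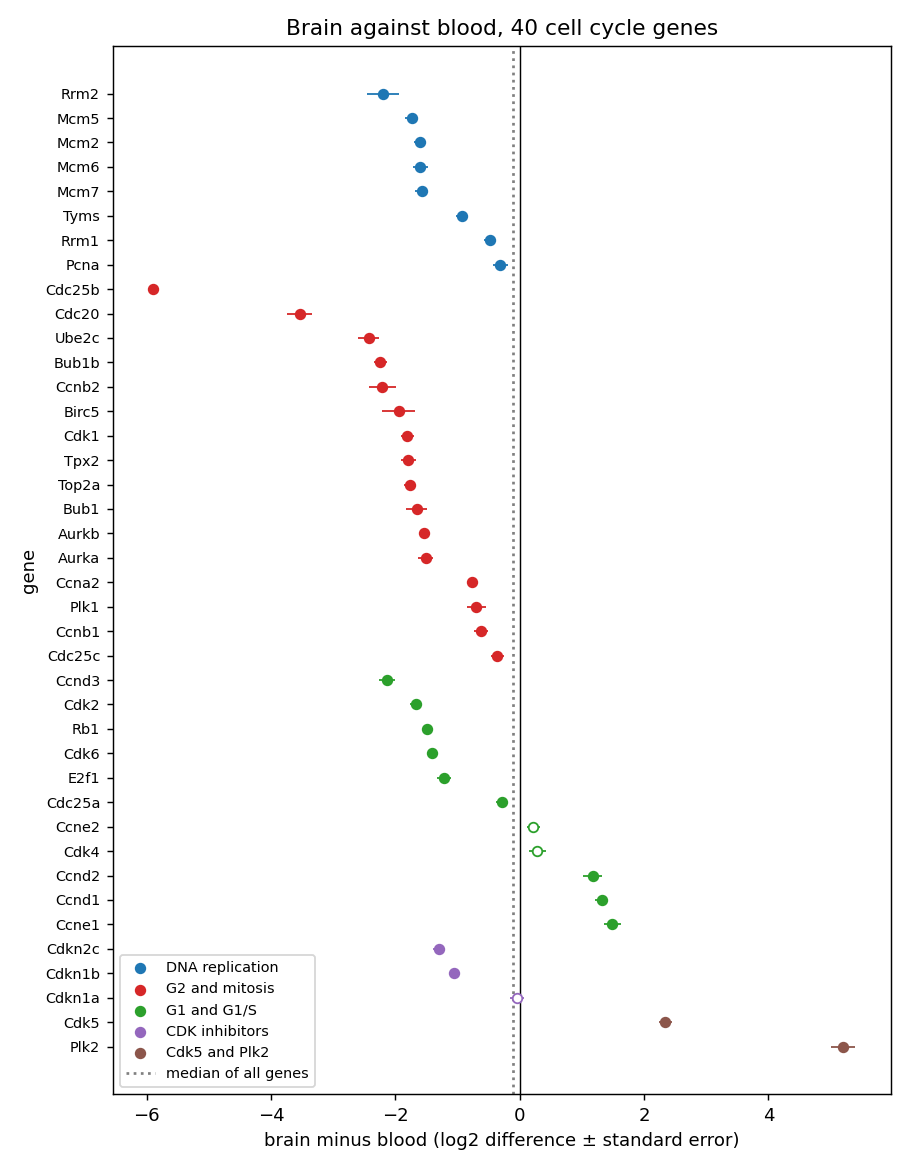
Difference of brain (mean of HC and PFC) from blood in log2 units for each of the 40 genes, coloured by role, with the standard error from limma as a bar; filled points passed the test and open points did not. All replication and mitosis genes lie left of 0, Cdc25b at -5.90 and Plk2 at 5.20 mark the ends, and the dotted line is the median of all genes, -0.11.

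Since these 2 groups of genes moved together, some of their promoters are shown as examples, with 1 gene of the opposite direction (Plk2). The examples were chosen after values were seen and do not follow the size of the difference. Cdc25b (-5.9), for one, is not shown. The sequences are the 150 bases before the transcription start from RefSeq, assembly GRCr8, written 5′ to 3′ in the direction of the gene. The motifs searched, on both strands, were the cell cycle homology region (CHR; TTTGAA or TTCGAA), the CCAAT box (CCAAT) and 4 words bound by E2F (TTTCCCGC, TTTGGCGC, TTTCGCGC or TTTGCCGC). Capitals mark a match, and a match on the opposite strand appears as its reverse complement, TTCAAA for TTTGAA and ATTGG for CCAAT.
Cdc20, chr5:137255800-137255949, minus strand: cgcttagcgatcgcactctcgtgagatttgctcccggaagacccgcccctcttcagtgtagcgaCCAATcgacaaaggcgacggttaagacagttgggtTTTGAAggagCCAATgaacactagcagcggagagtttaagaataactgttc
Ccnb2, chr8:79981659-79981808, minus strand: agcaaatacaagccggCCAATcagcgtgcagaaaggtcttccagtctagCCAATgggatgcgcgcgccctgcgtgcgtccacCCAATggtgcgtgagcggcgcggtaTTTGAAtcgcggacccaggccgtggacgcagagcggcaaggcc
Top2a, chr10:84473094-84473243, minus strand: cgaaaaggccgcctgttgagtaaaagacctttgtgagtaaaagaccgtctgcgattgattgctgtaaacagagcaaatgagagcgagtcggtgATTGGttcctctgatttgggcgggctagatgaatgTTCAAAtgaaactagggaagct
Mcm5, chr19:13488663-13488812, plus strand: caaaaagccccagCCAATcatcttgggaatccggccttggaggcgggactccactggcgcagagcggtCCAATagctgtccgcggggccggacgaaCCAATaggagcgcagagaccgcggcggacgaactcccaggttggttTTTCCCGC
Plk2, chr2:43702386-43702535, plus strand: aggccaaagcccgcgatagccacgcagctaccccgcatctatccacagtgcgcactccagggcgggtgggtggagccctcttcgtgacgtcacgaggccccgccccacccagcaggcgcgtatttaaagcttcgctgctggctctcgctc

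In these windows Cdc20, Ccnb2 and Top2a each had a CHR match 51, 43 and 22 bases before the start, with CCAAT matches next to it. Mcm5 had an E2F word 8 bases before the start and 3 CCAAT matches, and Plk2 had none of the motifs in the bases shown. In windows from 250 bases before to 50 after the start, 30 of the 40 genes were matched. In that longer window Plk2 held 1 CCAAT match. Of 12 mitotic genes 9 held a CHR (75.0%), against 19.7% of 33469 promoters, and Aurka, Bub1 and Ccnb1 held none. Those 33469 promoters were not limited to genes with a probe set on the array. Both a CHR and a CCAAT box were in 8 of the 12 (66.7%), against 7.95% of all promoters. Of 7 replication genes 5 held an E2F word (71.4%), against 2.14% of all promoters, and 3 held a CHR (42.9%). Pcna and Rrm1 held no E2F word. None of the 6 matched G1 genes held a CHR. In the second list of pathway genes, a CHR was in 15 of 23 mitotic promoters (65.2%), in 7 of 14 of regulators of G1 and the resting state (50.0%) and in 1 of 17 of replication genes (5.88%). An E2F word was in 6 of those 17 (35.3%). Matches of different motifs overlapped in 1 of the 30 promoters. These counts describe letters in the reference sequence and are not evidence of binding in these tissues.

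Of the 11 genes of G1 and S phase entry, 6 were lower in brain (54.5%), 3 were higher (27.3%) and 2 did not pass the test, near the split of all genes (43.9% lower and 38.6% higher). Their median was -0.29. The D cyclins, which pair with Cdk4 and Cdk6, split. Ccnd3 read 9.27, 9.87 and 9.34 in blood, 7.40, 7.39 and 7.42 in HC, and 7.38, 7.31 and 7.25 in PFC. It was lower in brain by -2.13 ± 0.128 (adjusted p = 2.28e-07). Ccnd1 (difference 1.32 ± 0.102, adjusted p = 1.57e-06) and Ccnd2 (1.17 ± 0.152, adjusted p = 6.54e-05) were higher in brain. Ccnd1 read 6.18 to 6.62 in blood and 7.63 to 7.81 in brain. Ccnd2 read 8.44 to 9.16 in blood and 9.70 to 10.39 in brain. Neither overlapped.

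Of the E cyclins, which pair with Cdk2, Ccne1 read 5.70, 5.59 and 5.08 in blood, 6.86, 7.03 and 6.86 in HC, and 6.97, 7.04 and 6.88 in PFC. It was higher in brain by 1.49 ± 0.134 (adjusted p = 4.59e-06), and by 1.33 with the common floor. Ccne2 read 5.16 to 5.58 in blood and 5.49 to 5.59 in brain, close to background. It differed by 0.22 (adjusted p = 0.0651), and by 0.35 without the blood of rat 5 (adjusted p = 0.00117).

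**Figure D3:**
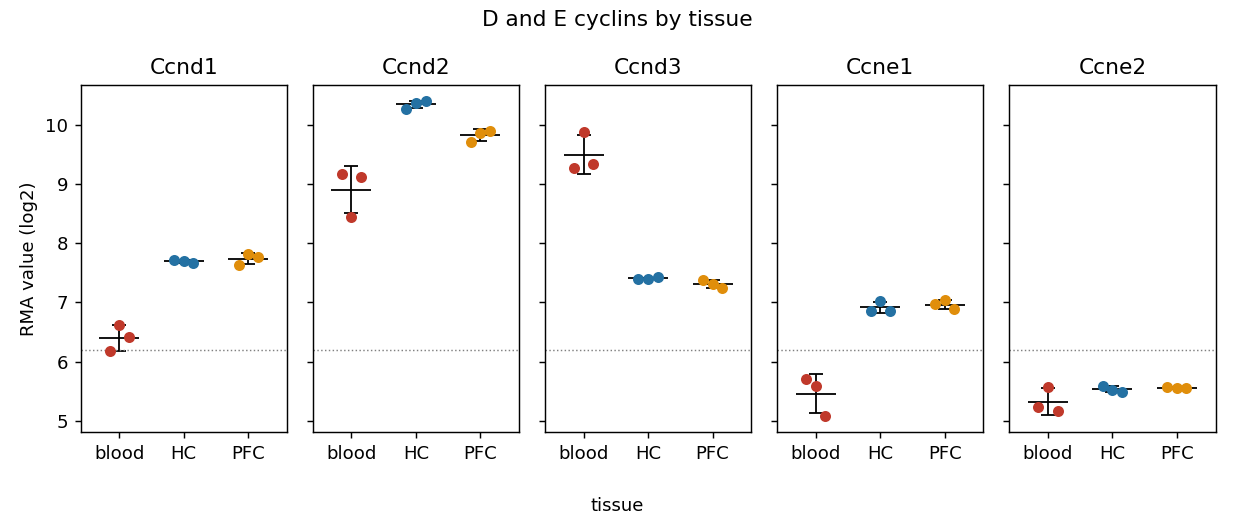
Log2 RMA value of the D and E cyclins in each array (points) by tissue, with the mean (bar) and SD of 3 arrays; the dotted line is the presence cut-off of 6.2. Ccnd3 is highest in blood (9.27 to 9.87), Ccnd1, Ccnd2 and Ccne1 are higher in HC and PFC, and the blood and brain values of Ccne2 overlap.

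Of their kinases, Cdk2 and Cdk6 were lower in brain and Cdk4 did not pass the test. Cdk2 read 7.77, 7.63 and 7.83 in blood, 6.17, 6.27 and 6.05 in HC, and 6.13, 5.91 and 5.91 in PFC (difference -1.67 ± 0.0933, adjusted p = 1.37e-07). Cdk6 was lower by -1.41. Cdk4 read 8.78, 8.26 and 8.97 in blood against 8.76 to 9.19 in brain. Its difference of 0.28 (adjusted p = 0.0875) became 0.43 without the blood of rat 7 (adjusted p = 0.0143), and changed sign when arrays were scaled on housekeeping genes (-0.27, adjusted p = 0.0265) or quantile normalized (-0.17).

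Rb1, the pocket protein that holds E2F factors back, read 9.45, 9.33 and 9.37 in blood, 8.20, 8.09 and 8.09 in HC, and 7.67, 7.61 and 7.71 in PFC. The 3 tissues were separate, with brain lower by -1.49 ± 0.0747 (adjusted p = 6.34e-08). E2f1, an activating E2F factor, was lower by -1.22, and by -0.72 with the common floor. Cdc25a, the phosphatase that activates Cdk2, was lower by -0.29 (adjusted p = 0.0111). That last call was lost when the arrays were quantile normalized (adjusted p = 0.0855), with the spread estimated per tissue (adjusted p = 0.0844) and without rat 7 (adjusted p = 0.0944).

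Of the 3 inhibitors, 2 were lower in brain (66.7%, against 43.9% of all genes) and Cdkn1a did not pass the test. Cdkn2c (p18), which blocks Cdk4 and Cdk6, read 7.03, 6.79 and 6.79 in blood, 5.66, 5.59 and 5.65 in HC, and 5.45, 5.62 and 5.43 in PFC (difference -1.30 ± 0.0884, adjusted p = 5.68e-07). Cdkn1b (p27), which blocks Cdk2, read 9.07, 8.98 and 9.15 in blood, 8.09, 8.11 and 8.11 in HC, and 7.98, 7.92 and 7.91 in PFC (difference -1.05 ± 0.0735, adjusted p = 7.10e-07). Cdkn1a (p21), a target of p53, read 6.06 to 6.32 in blood and 5.92 to 6.51 in brain. It differed by -0.04 (adjusted p = 0.763), and by -0.59 with housekeeping scaling (adjusted p = 0.00115).

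Cdk5 and Plk2 were the opposite of the mitotic kinases. Cdk5, which is activated in neurons by p35 rather than by a cyclin, read 7.74, 7.27 and 7.63 in blood, 9.81, 9.78 and 9.79 in HC, and 10.03, 9.98 and 9.92 in PFC. It was higher in brain by 2.34 ± 0.107 (adjusted p = 3.06e-08). Plk2, a polo-like kinase induced by neuronal activity, read 4.65, 5.72 and 5.39 in blood, around background. It read 10.28, 10.23 and 10.34 in HC and 10.53, 10.68 and 10.66 in PFC. The difference was 5.20 ± 0.194 (36.8-fold, adjusted p = 7.70e-09), and 4.86 with the common floor. The 8 neuronal markers had a median difference of 6.38, and the part of neuron content in these 2 differences was not tested.

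Other genes of the pathway came from a list of 83, of which 70 had a probe set. Of these 48 were lower in brain (68.6%, against 43.9% of all genes), 18 were higher (25.7%, against 38.6%) and 4 did not pass, with a median of -0.76. Of 27 other mitotic genes 25 were lower (median -1.16). These included securin Pttg1 (blood mean 10.75 ± 0.575 SD against 5.12 ± 0.120 in HC and 5.33 ± 0.106 in PFC; difference -5.52), the spindle protein Dlgap5 (-3.31) and the cytokinesis factor Ect2 (-2.94). Dlgap5 and Ect2 were not above background in brain, and differed by -2.34 and -1.31 with the common floor. The 2 called higher were Wee1 (1.07), the kinase that holds Cdk1 inactive, and Hmmr (0.54). Hmmr was below background in blood and HC, its blood and brain arrays overlapped, and its call was lost with the spread estimated per tissue (adjusted p = 0.260). Raised to the background of each tissue it differed by -0.48, and by 0.04 with the common floor. Of 19 other replication genes 14 were lower, with Tk1 (-2.22), Cdc6 (-2.11) and Brca1 (-1.44) at the head. With the common floor Cdc6 differed by -1.28 and Brca1 by -0.63. Cdc7 (0.43) and Orc6 (0.34) were higher, and the call of Orc6 was lost with the spread estimated per tissue (adjusted p = 0.149).

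Of 17 regulators of G1 and of the resting state, 9 were lower (52.9%) and 7 higher (41.2%), near the split of all genes. Tfdp2, a partner of the E2F factors, had a mean of 12.19 ± 0.0609 (SD, n = 3) in blood and differed by -4.10. The phosphatase Cdkn3, below background in brain, differed by -3.71 (-2.28 with the common floor), and the antiproliferative Btg1 by -2.56. E2f3 (1.45), Tob1 (1.36), another antiproliferative gene, and the cyclin Ccnh (1.09) were higher in brain. All 7 relatives and partners of Cdk5 and Plk2 were higher in brain, against 38.6% of all genes. Among them were Cdk14 (4.66), the p35 gene Cdk5r1 (3.53) and Cdk17 (1.60). Cdk14 and Cdk5r1 were not above background in blood, and with the common floor they differed by 4.54 and 3.38.

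Between HC and PFC few of the genes differed. The test called 4 of 40: Rb1 was higher in HC, and Tpx2, Cdc25b and Cdk6 were higher in PFC. Of all genes 2.85% were called higher and 3.30% lower in HC, or 6.16% in either direction, so the 4 are near the background share. The 3 HC and 3 PFC arrays did not overlap for 16 of 40 genes, compared with 37.0% of all genes.

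Tpx2, which targets Aurora A to the spindle, had values of 4.94, 5.20 and 5.24 in HC and of 6.54, 6.64 and 6.70 in PFC. It was present in PFC and near background in HC, a difference of -1.50 ± 0.135 (2.83-fold, adjusted p = 0.000197). This call held under every alternative run. Tpx2 differed from blood by -2.54 in HC and -1.04 in PFC. Of the 16 mitotic genes 14 did not pass the test between the regions, and the median over all 16 was 0.02. Of the 70 other pathway genes 2 were called between the regions (2.86%, against 6.16% of all genes): Kif23 (-0.73, adjusted p = 0.00483), a kinesin of cytokinesis, and Plk3 (-0.77, adjusted p = 0.00118), a stress-responsive polo-like kinase.

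The remaining 3 regional calls were small. Cdc25b was lower in HC by -0.54 ± 0.0882 (adjusted p = 0.00701), and this was lost without the HC array of rat 5 (adjusted p = 0.0503), without any one rat (adjusted p from 0.0953 to 0.133) and with housekeeping scaling (adjusted p = 0.0989). Cdc25b was far higher in blood than in brain, and all 8 erythroid markers also had higher means in PFC than in HC. Of the 8, 6 did not overlap, against 37.0% of all genes. The test called 1 of them, Hbb (-0.97, adjusted p = 0.0241), against 6.16% of all genes. The mean of the 8 ranged from 4.96 to 5.15 in HC and from 5.35 to 5.58 in PFC. Of them 3 (Ahsp, Hemgn and Rhag) were not above background in either region. Of the B and T cell markers, Cd3e was higher in HC by 2.1 (adjusted p = 0.000358 by limma). The others differed by -0.22 to -0.01. Above background in each region were 3 of 6 B and T cell markers and 1 of 8 neutrophil markers. The median difference was -0.27 for erythroid, -0.09 for B and T cell and 0.1 for neutrophil markers. The part of blood cells in the difference of Cdc25b was not tested. Rb1 was higher in HC by 0.47 ± 0.0863 (adjusted p = 0.0140), and this was lost without any one of the 6 brain arrays (adjusted p from 0.0544 to 0.0920). Cdk6 read 5.65, 5.77 and 5.70 in HC and 6.17, 6.10 and 6.13 in PFC, a difference of -0.42 ± 0.0893 (adjusted p = 0.0263). It was lost with the rat as a block (adjusted p = 0.0679), after housekeeping scaling (adjusted p = 0.234), after quantile normalization (adjusted p = 0.0946) and without any one of the 6 brain arrays (adjusted p from 0.0820 to 0.147).

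**Figure D4:**
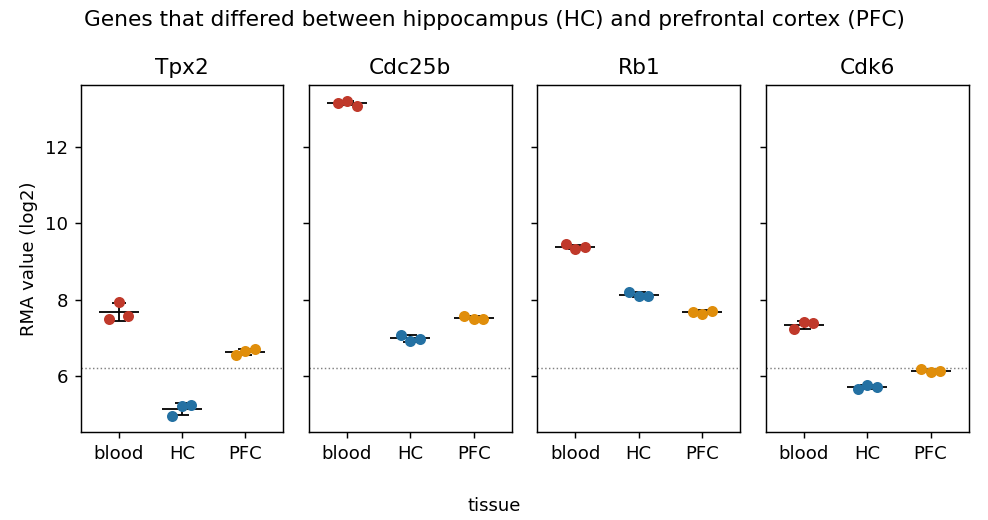
Log2 RMA value of Tpx2, Cdc25b, Rb1 and Cdk6 in each array (points) by tissue, with the mean (bar) and SD of 3 arrays; the dotted line is the presence cut-off of 6.2. In each gene the HC and PFC points do not overlap, with the widest gap for Tpx2 (4.94 to 5.24 in HC against 6.54 to 6.70 in PFC).

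Blood arrays spread more than brain arrays (median SD over all genes 0.228, against 0.0701 in HC and 0.0792 in PFC), and the shared estimate of the spread is therefore wide for a comparison of the 2 regions. For brain against blood it is narrow, so the standard errors and adjusted p-values given above can be too small. An alternative with the spread estimated per tissue was added after seeing the data. In brain minus blood its limma adjusted p was 0.00041 for Rrm2 (3.36e-05 with the shared spread) and 0.00013 for Mcm7 (7.19e-07). The calls of Pcna and Cdc25a were lost. Between the regions it called 10 of 40 genes, against 18.2% of all genes. The 6 gained were Ccnd2 (0.52, adjusted p = 0.00196), Cdk4 (0.38, adjusted p = 0.00664), Tyms (0.34, adjusted p = 0.00761), Top2a (0.27, adjusted p = 0.0352) and Aurkb (0.26, adjusted p = 0.0230), all higher in HC, and Plk2 (-0.34, adjusted p = 0.0372). From the brain arrays alone Top2a and Aurkb were not called, and with the rat as a block there Tyms was not either, which left Ccnd2 (adjusted p = 0.00786), Cdk4 (adjusted p = 0.0224) and Plk2 (adjusted p = 0.0395). Top2a was below background in PFC, and differed by 0.11 with values raised to the background of each region. Ccnd2, a D cyclin of neural progenitors, read 10.27, 10.36 and 10.39 in HC against 9.70, 9.86 and 9.89 in PFC. Of 6 markers of new neurons and neural progenitors, 2 were called with that spread: Neurod1 (1.45, adjusted p = 6.43e-06), with means of 8.08 in HC and 6.62 in PFC, and Sox2 (0.27, adjusted p = 0.0171). With the shared spread Neurod1 alone was called. Igfbpl1 (0.19), Nes (0.13), Sox11 (0.01) and Dcx (-0.1) were called with neither spread. Neurod1 had the widest difference of the 6, so it weighs most in their mean. The mean of the 6 ranged from 6.90 to 7.00 in HC and from 6.61 to 6.67 in PFC, and its part in these differences was not tested.

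Within blood, the 3 arrays differed in mitotic genes. Rat and blood array coincide, so a difference between rats cannot be told apart from a difference of sampling or array. The genes of a list are not replicates of a rat. The array of rat 5 was the highest of the 3 for 14 of 16 mitotic genes, compared with 34.1% of all genes. The median gap from the mean of rats 2 and 7 was 0.34, against -0.03 over all genes. It was 1.28 for Birc5, 1.07 for Ccnb2, 0.72 for Ube2c and 0.59 for Cdc20. Birc5 read 6.91, 8.25 and 7.02 in rats 2, 5 and 7, and Ccnb2 read 6.91, 8.02 and 6.98.

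For 6 of 8 replication genes the blood of rat 5 was the lowest, compared with 40.5% of all genes, with a median gap of -0.29, while Rrm2 (1.14) and Tyms (0.26) were highest in it. The housekeeping panel was also lower in that array. It had to be raised by 0.56 in rat 5, by 0.31 in rat 2 and by 0.23 in rat 7 to reach the mean of all arrays. After that scaling, an alternative added after seeing the data, rat 5 was the lowest for 2 of 8 replication genes with a median gap of 0.0, so that pattern depends on the scaling. It was then the highest for all 16 mitotic genes, with a median gap of 0.64, against 63.2% of all genes and a median gap of 0.27. In the values as deposited, 15 of 27 other mitotic genes (55.6%) and 5 of 19 other replication genes (26.3%) were highest in rat 5. The share of all genes in those values was 34.1%. Markers of blood cells also differed between the blood arrays. In rats 2, 5 and 7 the mean of 8 erythroid markers was 11.62, 11.83 and 11.61, that of 8 neutrophil markers 8.65, 9.03 and 8.40, and that of 6 B and T cell markers 9.67, 9.18 and 9.72. The neutrophil markers did not move alike. Ngp, Camp, S100a9, Mmp8 and Fpr1 were highest in rat 5, S100a8 was highest in rat 2, and Csf3r and Cxcr2 were lowest in rat 5. The part of cell composition in the mitotic genes was not tested. Without the blood of rat 5, all 16 mitotic genes were still lower in brain, with a median of -1.59.

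**Figure D5:**
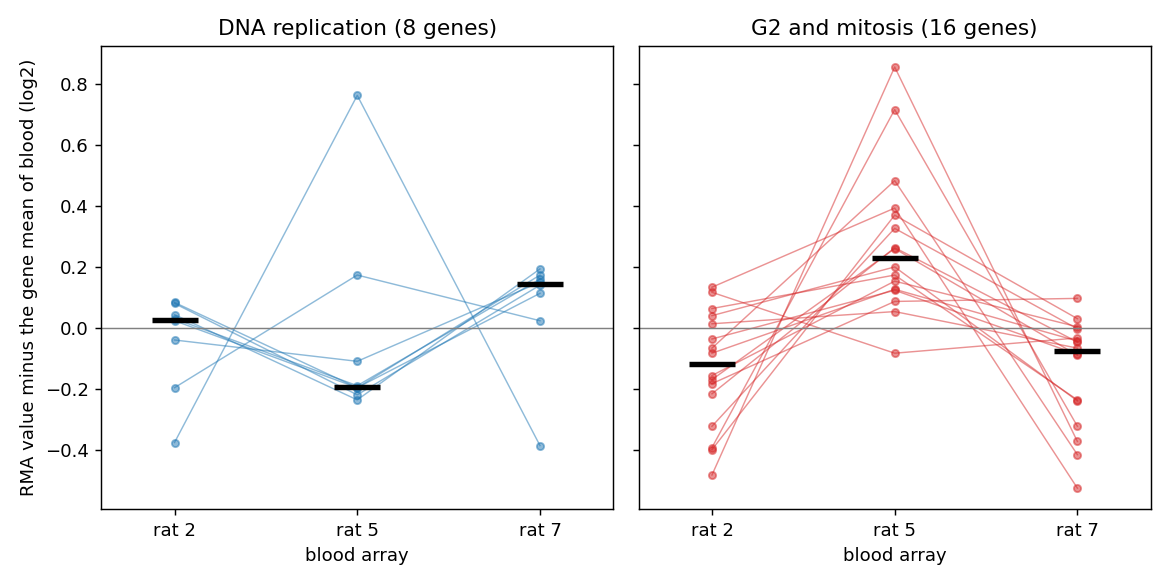
Log2 RMA value of each gene in the 3 blood arrays minus the mean of that gene over blood, for 8 replication genes (left) and 16 mitotic genes (right); lines join the arrays of a gene and black bars are medians. Rat 5 was the highest array for 14 of 16 mitotic genes and the lowest for 6 of 8 replication genes (2 of 8 after housekeeping scaling).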

How the data were processed

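The authors hybridized RNA of 3 tissues from each of 3 rats to 9 Rat Gene 1.0 ST arrays, applied quantile normalization and RMA to the intensities. The deposited values were read as log2 from their range (1.53 to 14.01), since the log base is not stated; the detection p-values of the authors were not used. RMA values compress differences near background, and the number of arrays limits the precision.

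Gene symbols came from the array annotation, updated through gene IDs to GRCr8 for 15279 of 15310 probe sets with 1 symbol; 323 had several symbols and 13581 none. Tissue was a factor with 3 levels in limma 3.58.1 (R 4.3.3), fitted without a filter on 29214 of 29215 probe sets, with Benjamini-Hochberg adjustment over all of them. All adjusted p-values come from this fit or its alternatives. An exact permutation test was not used for single genes. Between single tissues, 3 against 3 arrays cannot reach the threshold, and for brain against blood it was not run. Background in a tissue was set by chemosensory receptors (95th percentile). The fit was tested on simulated data.

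The members and lists were chosen with earlier results of these data known. Values in every array are given for Top2a and Cdk1, the 3 widest called differences per role and genes called between HC and PFC; of other pathway lists, up to 3 called genes per direction. Arrays of 1 number come from the same rat by the labels; their deviations from tissue means correlated at 0.09 to 0.23 between HC and PFC and at -0.05 to 0.05 with blood. The promoters shown were chosen after values were seen. Figures were drawn with matplotlib 3.10.9.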

Additional observations from a re-analysis of the deposited data

How the results depend on the processing

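In brain minus blood, 5 genes were higher and 32 lower, and the counts ranged from 5 to 6 and from 29 to 32 when each array or rat was left out. They were 5 and 32 with the replicate block, 5 and 34 after housekeeping scaling, 6 and 30 after quantile normalization, and 5 and 30 with the spread estimated per tissue. Only genes with small differences changed sign: Cdk4 to -0.27 and Ccne2 to -0.33 after housekeeping scaling, Cdk4 to -0.17 after quantile normalization, Ccne2 to -0.00 with values raised to background, and Cdkn1a from -0.04 to 0.03 without the blood array of rat 7 (range -0.10 to 0.03 when arrays or rats were left out). The cause was not tested. Between HC and PFC 1 gene was higher in HC and 3 were lower. The higher count was 0 at an adjusted p under 0.01 and 0 at a log2 difference of at least 1, 2 after housekeeping scaling, 5 with values raised to background (where the tissues get different floors by construction), 6 with the spread estimated per tissue, 4 from brain arrays alone and 3 from brain arrays alone with the replicate block. It ranged from 0 to 3 when arrays or rats were left out. The lower count was 1 at a log2 difference of at least 1 and 1 after housekeeping scaling, and ranged from 1 to 3 when arrays or rats were left out. The replicate block changed 1 call among the 40 genes in these 2 comparisons, that of Cdk6 between HC and PFC (adjusted p = 0.0679 by limma). With the chemosensory cut-off the genes present in HC numbered 36 and those in PFC 35, in place of 15 and 17. Differences of genes near background, among them Cdk1, Bub1, Bub1b and Ccna2, are limited by the signal over background. With the common floor the median brain minus blood difference of the 40 genes was -0.99, against 0.0 over all genes.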
